A study of Homo sapiens with 9 samples.

Results

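The 50 genes described here are interferon-stimulated genes outside the IFIT and OAS families, which were left out by the rule that chose them together with nucleic acid sensors and MHC class I genes. They were taken by symbol from the count table and kept where at least 10 counts were found in at least 3 of the 9 libraries. All 50 of the 50 listed genes met this minimum, out of 16030 genes that met it and 63187 genes in the table. The members nearest to the minimum were CMPK2, with 4 to 45 counts per library and 8 libraries at 10 counts or more, and RSAD2, with 6 to 150 counts and 7 such libraries.

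BEAS-2B cells derive from human bronchial epithelium, were immortalized, and were grown here in medium with serum. The study exposed it for 24 h to medium with 2% (v/v) of an aerosol condensate and sequenced polyadenylated RNA. PG/VG is the condensate of a mixture of propylene glycol with vegetable glycerine, the carrier, without nicotine or flavor in its label, and EC is the condensate of an e-cigarette liquid with 18 mg/mL nicotine and a Virginia tobacco flavor. Untreated cells were the control, and each of the 3 groups had 3 libraries from separate biological replicates of this 1 line, numbered 2, 3 and 4, with the same number given as the batch. EC differs from PG/VG in both nicotine and flavor, so these cannot be told apart.

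Interferons are cytokines that cells release on viral infection. Type I and type III interferons signal through the kinases JAK1 and TYK2 to a complex that includes STAT2 and IRF9 and binds the interferon-stimulated response element (ISRE), while interferon gamma acts mainly through the gamma-activated sequence (GAS). The target genes encode proteins that block viral entry, replication and release, the ubiquitin-like modifier ISG15 with the enzymes that attach and remove it, and the signalling proteins themselves. Airway epithelial cells use the same genes as a first line of antiviral defence, and many are also transcribed at a lower level without infection.

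The sequences around the starts of these genes were searched for the ISRE and GAS cores. In the RefSeq promoter windows on GRCh38.p14, which run from 250 bases before to 50 bases after a gene's start, 44 of the 50 members had an entry, and MX2, IFITM2, TRIM22, USP18, IRF7 and GBP2 had none. A single window was searched per gene symbol, the one with the lowest coordinate, so any other start of a gene is not covered. The ISRE core was searched as GAAANNGAAA on both strands (TTTCNNTTTC on the other), with overlapping matches counted. It was found in 26 of the 44 members' windows (59.1%), against 997 of 27305 promoter windows in all (3.65%). In MX1, EIF2AK2, DTX3L, GBP3, SECTM1 and TRIM21, every ISRE match reached the transcribed part, so none lay wholly upstream. The GAS core TTCNNNGAA, which is its own reverse complement, was found in 13 of the 44 (29.5%), against 7.94% of all windows. The windows below show the ISRE core in capitals with 15 flanking bases where the upstream part allows, 5′ to 3′ along the strand of the gene. They were chosen to set members that were higher after treatment beside members that were not. The first 7 (BST2, DDX60, ISG15, IFI44, HERC5, SAMD9 and PARP14) belong to genes that were higher than the control with both condensates, and the last 4 (IFITM3, EPSTI1, GBP1 and LGALS3BP) to genes called in neither.
BST2 (chr19:17405730-17405769, minus strand): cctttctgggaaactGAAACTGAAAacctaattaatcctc
DDX60 (chr4:168318781-168318820, minus strand): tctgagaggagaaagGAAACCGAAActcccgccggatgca
ISG15 (chr1:1013375-1013414, plus strand): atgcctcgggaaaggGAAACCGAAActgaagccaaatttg
IFI44 (chr1:78649756-78649788, plus strand): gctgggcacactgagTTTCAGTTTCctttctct
HERC5 (chr4:88457030-88457069, plus strand): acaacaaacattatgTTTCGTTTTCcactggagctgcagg
SAMD9 (chr7:93118091-93118130, minus strand): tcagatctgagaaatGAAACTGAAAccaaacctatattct
PARP14 (chr3:122680795-122680834, plus strand): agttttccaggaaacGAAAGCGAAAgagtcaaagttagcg
IFITM3 (chr11:320871-320910, minus strand): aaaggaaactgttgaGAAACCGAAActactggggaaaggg
EPSTI1 (chr13:42992267-42992306, minus strand): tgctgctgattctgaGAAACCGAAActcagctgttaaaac
GBP1 (chr1:89065311-89065350, minus strand): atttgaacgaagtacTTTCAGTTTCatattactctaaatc
LGALS3BP (chr17:78979957-78979996, minus strand): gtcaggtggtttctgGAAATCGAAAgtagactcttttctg

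The core began 124 bases before the start in BST2, 53 in DDX60, 107 in ISG15, 18 in IFI44, 74 in HERC5, 136 in SAMD9 and 29 in PARP14. In the genes that were called in neither comparison it began 35 bases before the start in IFITM3, 50 in EPSTI1, 127 in GBP1 and 58 in LGALS3BP. BST2, DDX60, ISG15, HERC5 and IFITM3 carried more than 1 such core, some of them overlapping. The same letters stood in front of genes that were higher after treatment and genes that were not, because the windows were picked to show both. A match to these letters describes the window and is no evidence of binding, and a window without them says nothing about the factor.

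Values are read counts scaled to library size with TMM factors (CPM), listed in the order of replicates 2, 3 and 4. A fold change is the fitted log2 fold change (LFC) of 1 model of all 9 libraries with condition and batch as terms, with its standard error (SE). A gene was called where the Benjamini-Hochberg adjusted p of edgeR's quasi-likelihood test, over all 16030 genes, was under 0.05. Every adjusted p below is from that test. The share of all genes called is given for this model alone. Counts at an unadjusted p under 0.05, or under other settings, have no such background beside them. The comparisons of EC and of PG/VG with the control share the same 3 control libraries, so likeness between them is given only as values side by side. The data are bulk RNA, in which a change in the share of cells that express a gene and a change in RNA per cell cannot be told apart.

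The counts assigned to genes ranged from 16168260 to 17882770 in the control libraries, from 18427225 to 24882516 in PG/VG and from 19318218 to 24917838 in EC, so every treated library was deeper than every control. Epithelial markers summed to 1883 to 3091 CPM in the controls, 1832 to 2999 with PG/VG and 1614 to 2670 with EC, with 2 of the 10 listed (the basal keratins KRT5 and KRT14) under 10 counts in every library. Mesenchymal markers were also present, at 1451 to 1629, 1322 to 1375 and 1201 to 1476 CPM. Of 12 immune cell markers, 10 were under 10 counts in every library, PTPRC (CD45) among them, and the list summed to 4.28 to 5.91, 6.69 to 8.15 and 5.51 to 9.66 CPM. The 4 endothelial markers summed to 5.40 to 9.68, 4.83 to 7.81 and 4.40 to 6.60 CPM. Mitochondrial genes took 1.32% to 1.92% of the counts.

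In EC vs. control, 24 of the 50 interferon-stimulated genes were higher and 0 were lower. Over all genes tested, 8.07% were called higher and 5.38% lower, while among the members 48% were called higher. The count of 0 lower members held in DESeq2 as well, which called 23 higher. No member was lower at an unadjusted p under 0.05 in either tool, against 31 higher in edgeR. How many of all genes passed that unadjusted cutoff is not given here. The LFC was above 0 in 46 members, and the median LFC was 0.34, beside 0.008 over all genes tested. In PG/VG vs. control, 17 members (34%) were higher and 0 lower, where 2.63% of all genes were called higher and 1.90% lower. Here 47 members had an LFC above 0, 27 were higher and 0 lower at an unadjusted p under 0.05, DESeq2 called 16 higher and 0 lower, and the median LFC was 0.29, beside 0.013 over all genes. When every library was thinned down to the depth of the shallowest, a step added after the data were seen, EC vs. control gave 24 higher and PG/VG vs. control 15 higher, again with 0 lower. The immune cell markers summed above were higher in every treated library but 1 than in the highest control. In these libraries CD14 made up most of the difference, except in PG/VG replicate 4. There CD14 was at 5.02 CPM, beside 5.27 CPM in control replicate 2, the control with the highest sum. The part of these markers in the results was not tested.

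**Figure D1:**
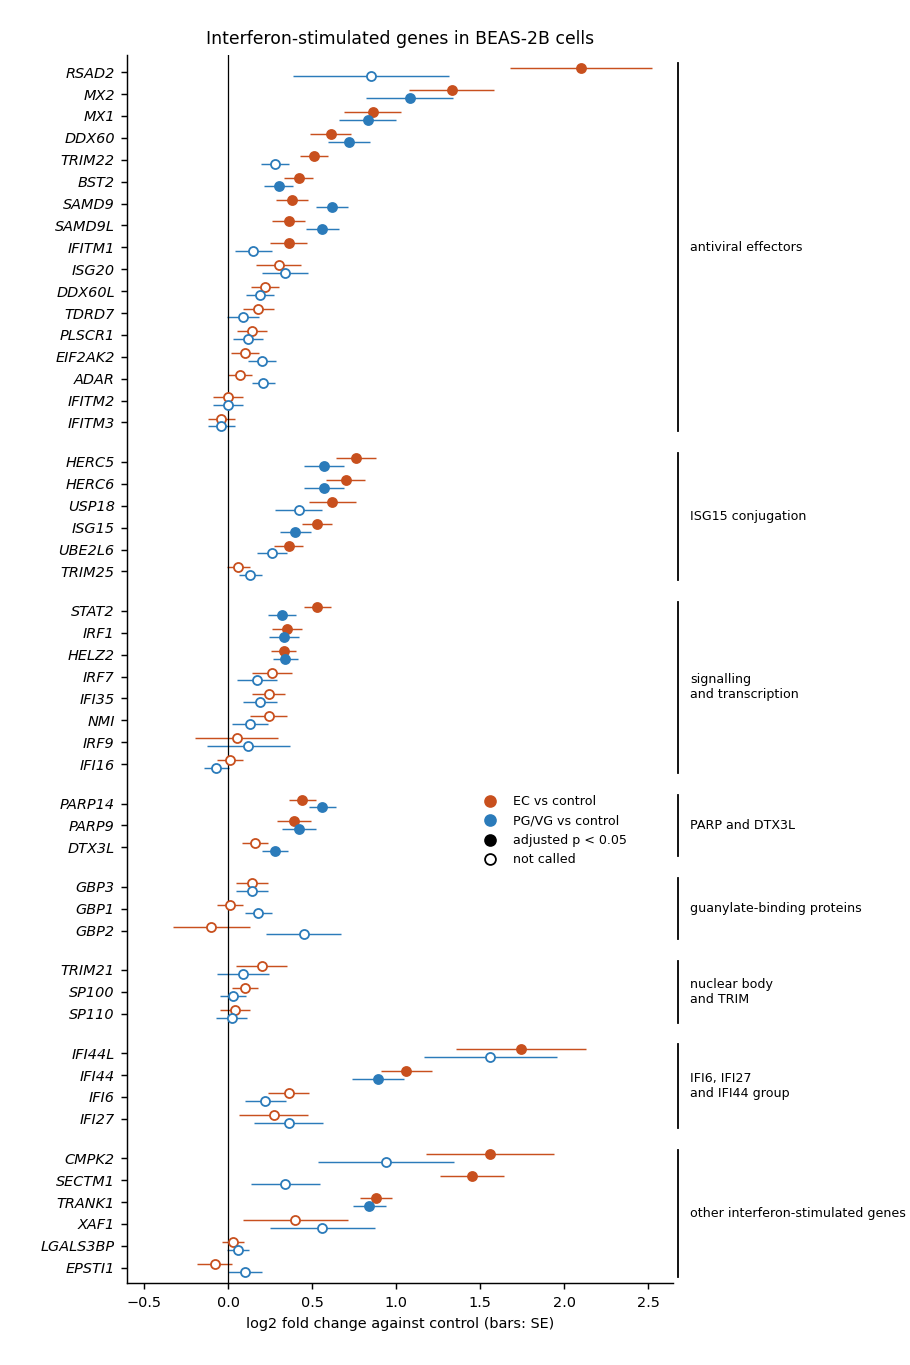
Fitted log2 fold change (x axis) of each of the 50 genes (y axis, grouped by role) in EC vs. control (orange) and PG/VG vs. control (blue), with bars of 1 SE and filled points for an adjusted p under 0.05. The points spread from about 0 to 2.10 with EC and to 1.56 with PG/VG, and no filled point lies left of 0.

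These calls rest on comparing libraries of the same batch. Without the replicate block, that is with the condition as the only term, 0 members passed in EC vs. control, 0 in PG/VG vs. control and 0 in EC vs. PG/VG, although the medians stayed at 0.34, 0.29 and 0.04 and 22, 16 and 1 members were higher at an unadjusted p under 0.05 in edgeR. For this fit and those that left out a library, the share of all genes called is not given. A library also mattered. Without control replicate 3, EC vs. control gave 17 members higher and PG/VG vs. control 8, and without control replicate 4 the counts were 17 and 13. Leaving out PG/VG replicate 3 or PG/VG replicate 4 left 8 in PG/VG vs. control. The call held in all 9 fits that left out 1 library for 12 members in EC vs. control (MX2, BST2, TRIM22, DDX60, ISG15, HERC5, HERC6, STAT2, PARP14, IFI44, TRANK1 and SECTM1), and for 6 in PG/VG vs. control (SAMD9, SAMD9L, DDX60, PARP14, IFI44 and TRANK1). Of the other called members, EC vs. control kept the call in 8 of these fits for MX1 and USP18, in 7 for RSAD2, CMPK2, IRF1, HELZ2 and PARP9, in 6 for SAMD9 and UBE2L6, in 5 for SAMD9L and IFI44L and in 4 for IFITM1. PG/VG vs. control kept it in 7 for ISG15, HERC5, HERC6 and HELZ2, in 6 for PARP9, in 5 for MX1, in 4 for IRF1 and STAT2 and in 3 for MX2, BST2 and DTX3L.

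Seen inside each batch, 43, 46 and 41 of the 50 members were higher in the EC library than in the control of batches 2, 3 and 4, with median log2 CPM differences of 0.27, 0.37 and 0.23. With PG/VG, 39, 45 and 42 were higher, with medians of 0.17, 0.39 and 0.29. The median over all genes tested was between 0.003 and 0.020 in these 6 contrasts, and 50.4% to 52.9% of all genes were higher. The difference from control was positive in all 3 batches for 34 members with EC, beside 24.6% of all genes tested, and for 31 with PG/VG, beside 23.6%. Batch 3 gave the largest median in both treatments. Of the 3 controls, replicate 3 was the lowest in 24 of the 50 members, replicate 4 in 19 and replicate 2 in 7. The matching shares of all genes are not given here, and the part of the control levels in the medians was not tested. The summed level of the 25 members called in at least 1 comparison was 759, 694 and 790 CPM in the controls, 937, 997 and 1092 CPM with PG/VG and 1026, 1004 and 1060 CPM with EC. For the other 25 it was 2280, 2153 and 2102 CPM in the controls, 2373, 2405 and 2251 CPM with PG/VG and 2379, 2352 and 2117 CPM with EC. The members were split by calls from these same libraries, so the gap in the first sum follows from the split. These sums only describe levels.

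**Figure D2:**
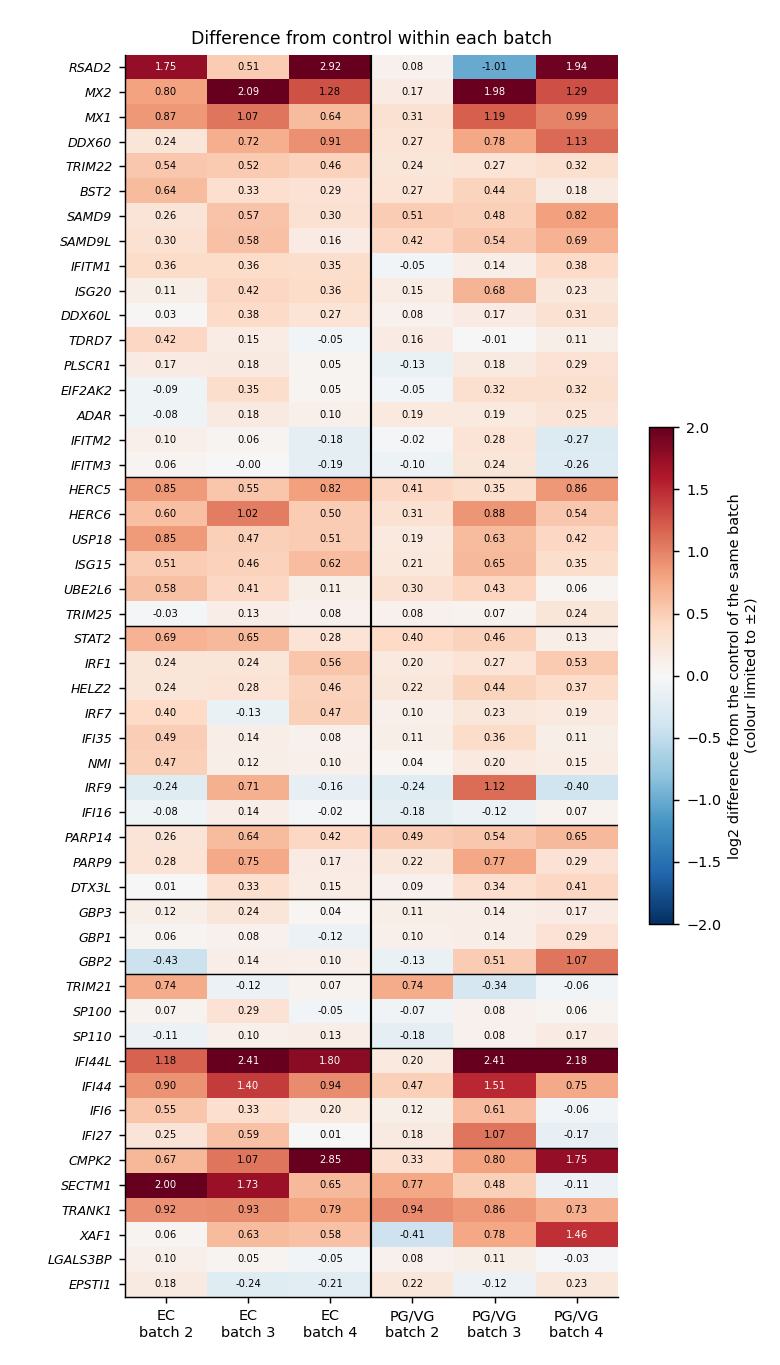
Log2 CPM difference of each treated library from the control of its own batch, with genes as rows grouped by role, 3 EC columns and 3 PG/VG columns, and red for higher and blue for lower. Rows such as TRANK1 are nearly even across the 6 columns, while RSAD2 runs from -1.01 to 2.92.

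Among the antiviral effectors, 9 of 17 were higher with EC and 6 of 17 with PG/VG, with median LFCs of 0.36 and 0.28. The group ran from the highest LFC of all 50 genes to LFCs at 0. MX1 and MX2 encode dynamin-like GTPases that trap incoming viral particles, and they are neighbours on chromosome 21 (MX2 at chr21:41361999-41409393 and MX1 at chr21:41420020-41470071, GRCh38), with 10.6 kb between them. MX1 stood at 23.1, 15.3 and 19.6 CPM in the controls, 28.7, 34.9 and 39.1 CPM with PG/VG and 42.3, 32.2 and 30.6 CPM with EC. All treated libraries lay above all controls, and the LFC was 0.86 (SE 0.17, adjusted p = 0.00912) in EC vs. control and 0.83 (SE 0.17, adjusted p = 0.0243) in PG/VG vs. control. MX2, at a lower level, measured 4.70, 1.80 and 2.20 CPM in the controls, 5.28, 7.39 and 5.49 CPM with PG/VG and 8.25, 7.96 and 5.46 CPM with EC. Its treated libraries also lay above all controls, while EC and PG/VG overlapped. Control replicate 2 was much higher than the other controls, and the LFC of 1.33 (SE 0.25, adjusted p = 0.0034) with EC ranged from 0.97 to 1.81 as libraries were left out. With PG/VG the LFC of MX2 was 1.08 (SE 0.26, adjusted p = 0.0297), and it kept the call in 3 of the 9 such fits.

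RSAD2 (chr2:6865557-6898239) encodes viperin, an enzyme that makes a chain-terminating ribonucleotide. It had the highest LFC of all 50 genes in EC vs. control and one of the lowest levels. The controls held 0.381, 0.867 and 0.901 CPM, the PG/VG libraries 0.410, 0.383 and 3.73 CPM and the EC libraries 1.51, 1.28 and 7.44 CPM. The batch 4 treated libraries stood far above the others, while every EC library was above every control. The LFC was 2.10 (SE 0.42, adjusted p = 0.00407) with EC and 0.85 (SE 0.47, adjusted p = 0.327) with PG/VG. It ranged from 1.02 to 2.82 with EC and from -0.29 to 1.52 with PG/VG as libraries were left out, and the EC call was lost without EC replicate 4 (or control replicate 4) and in DESeq2. Within batches 2, 3 and 4 the log2 difference was 1.75, 0.51 and 2.92 with EC and 0.08, -1.01 and 1.94 with PG/VG.

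CMPK2 (chr2:6840570-6866635), a mitochondrial nucleotide kinase gene placed head to head with RSAD2, overlaps it by 1079 bases on the opposite strand. Since the strand setting of the counting was not given in the sources used here, and reads on more than 1 gene were ignored, reads in the overlap could have been lost. CMPK2 was at 0.889, 0.619 and 0.225 CPM in the controls, 1.15, 1.15 and 0.986 CPM with PG/VG and 1.47, 1.40 and 2.23 CPM with EC. The 3 groups did not overlap and stood in the order control, PG/VG, EC, yet at 4 to 45 counts a library. The LFC was 1.56 (SE 0.38, adjusted p = 0.00827) with EC, lost without control replicate 4 or EC replicate 4, and 0.94 (SE 0.41, adjusted p = 0.195) with PG/VG.

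**Figure D3:**
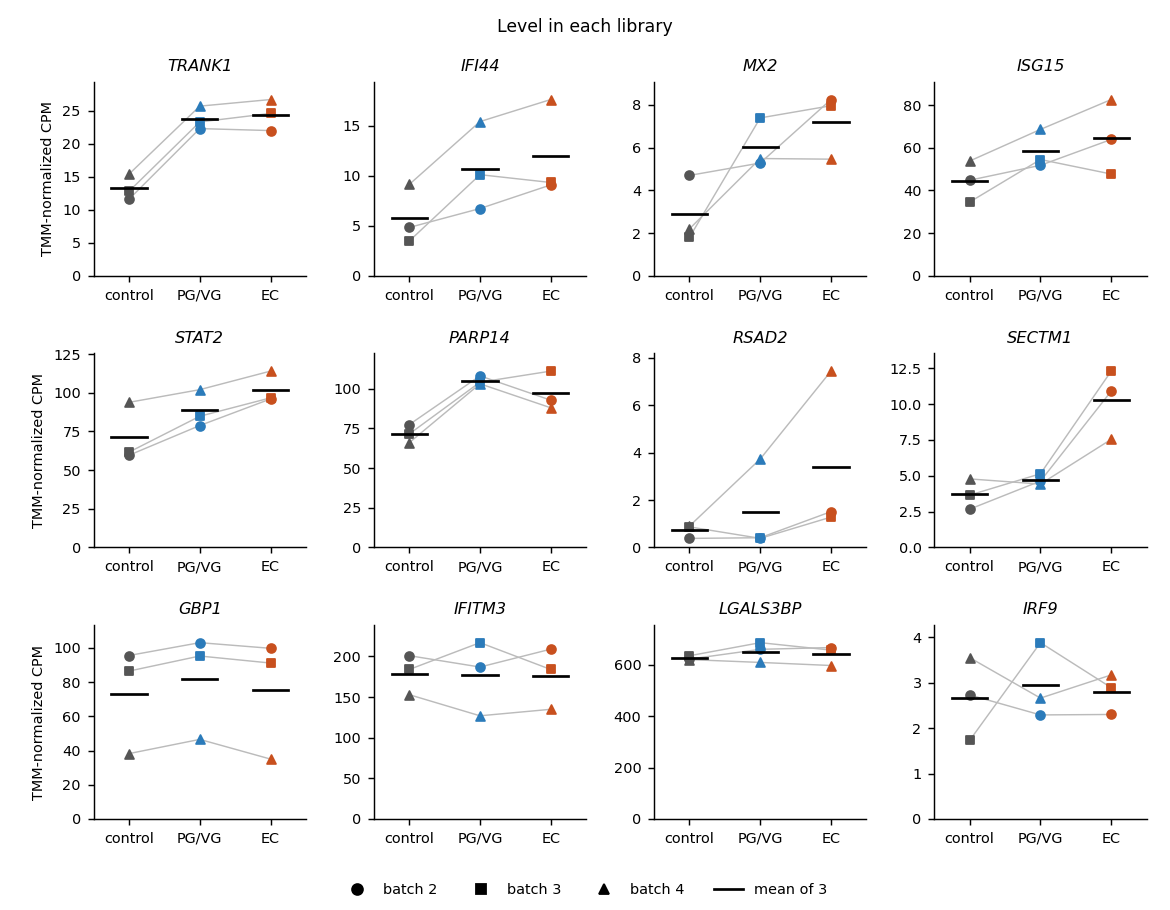
TMM-normalized CPM (y axes, from 0) of 12 of the genes in each library, with controls in grey, PG/VG in blue and EC in orange, marker shapes for batches, grey lines joining libraries of one batch and black bars for the mean of 3. TRANK1 separates treated from control libraries in every batch, RSAD2 is led by batch 4, SECTM1 stands apart in EC, and GBP1 follows the batch.

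Other antiviral genes moved by less. SAMD9 and SAMD9L are neighbouring genes on chromosome 7 that encode restriction factors of poxviruses. SAMD9 was at 39.1, 33.2 and 46.0 CPM in the controls, 55.8, 46.3 and 81.6 CPM with PG/VG and 46.8, 49.4 and 56.8 CPM with EC. Every treated library exceeded every control, with an LFC of 0.38 (SE 0.095, adjusted p = 0.00962) for EC and 0.62 (SE 0.095, adjusted p = 0.00073) for PG/VG. SAMD9L was at 29.2, 25.9 and 28.4 CPM in the controls, 39.0, 37.8 and 45.9 CPM with PG/VG and 36.0, 38.8 and 31.8 CPM with EC. Again no treated library reached down to the controls, and the LFC was 0.36 (SE 0.098, adjusted p = 0.0185) for EC and 0.56 (SE 0.098, adjusted p = 0.002) for PG/VG. In both genes the PG/VG value was the larger, but EC vs. PG/VG gave -0.23 (SE 0.092, adjusted p = 0.263) for SAMD9 and -0.20 (SE 0.095, adjusted p = 0.377) for SAMD9L, which did not pass.

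DDX60 is a helicase that promotes antiviral signalling. Its level was 28.3, 20.4 and 22.3 CPM in the controls, 34.2, 35.2 and 49.0 CPM with PG/VG and 33.4, 33.7 and 42.2 CPM with EC. All treated libraries of DDX60 lay above its controls, while EC and PG/VG overlapped. The LFC was 0.61 (SE 0.12, adjusted p = 0.00379) with EC and 0.72 (SE 0.12, adjusted p = 0.0033) with PG/VG, kept in all 9 fits with 1 library left out. DDX60L, its neighbour 37.9 kb away, was called in neither, with an LFC of 0.22 (SE 0.084, adjusted p = 0.0787) and 0.19 (SE 0.084, adjusted p = 0.211). Reads that fit both paralogs were not counted by the authors. Levels in such pairs (MX1 and MX2, SAMD9 and SAMD9L, DDX60 and DDX60L, HERC5 and HERC6, IFI44 and IFI44L, the IFITM and the GBP genes) may thus be less certain than for single-copy genes. How many reads this concerned was not measured.

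BST2 (tetherin), which holds budding virus on the cell surface, was at 64.4, 67.4 and 61.2 CPM in the controls, 77.5, 91.4 and 69.2 CPM with PG/VG and 100, 84.5 and 74.7 CPM with EC. The controls lay within a narrow band and below all treated libraries. The LFC was 0.42 (SE 0.085, adjusted p = 0.00194) with EC and 0.30 (SE 0.085, adjusted p = 0.0479) with PG/VG, the latter next to the threshold and lost in 6 of the 9 fits that left out a library. The PG/VG call was also lost in DESeq2 and with thinned counts, among other settings. TRIM22, a ubiquitin ligase that limits viral transcription, showed how far batch and treatment can overlap. It was at 21.7, 22.1 and 37.1 CPM in the controls, 25.8, 26.8 and 46.3 CPM with PG/VG and 31.6, 31.8 and 51.2 CPM with EC. Group ranges overlapped because batch 4 was high throughout, yet EC exceeded the control of its batch by 0.54, 0.52 and 0.46 (log2 difference), and the LFC was 0.51 (SE 0.083, adjusted p = 0.000255). With PG/VG the LFC was 0.28 (SE 0.084, adjusted p = 0.0559).

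The IFITM proteins, which stop viral membranes from fusing with the cell, lie together on chromosome 11 within a few kilobases and differed from each other. IFITM1 was at 16.3, 13.8 and 10.9 CPM in the controls, 15.8, 15.2 and 14.2 CPM with PG/VG and 20.9, 17.8 and 13.9 CPM with EC. The ranges overlapped, the LFC was 0.36 (SE 0.11, adjusted p = 0.0303) with EC and 0.15 (SE 0.11, adjusted p = 0.469) with PG/VG, and the EC call was kept in 4 of the 9 fits with a library left out and lost in DESeq2. Other annotated genes overlap 31.6% of the exon length of IFITM1. IFITM3, one of the most abundant members, was at 201, 184 and 153 CPM in the controls, 187, 217 and 127 CPM with PG/VG and 209, 184 and 135 CPM with EC. Its groups overlapped fully, and the LFC was -0.04 (SE 0.082, adjusted p = 0.786) with EC and -0.04 (SE 0.083, adjusted p = 0.843) with PG/VG. IFITM2 had an LFC of -0.00 in both.

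The protein kinase EIF2AK2 (PKR), which halts translation on double-stranded RNA, and the RNA-editing enzyme ADAR were abundant and not called. EIF2AK2 was at 165, 128 and 149 CPM in the controls, 159, 160 and 187 CPM with PG/VG and 155, 163 and 154 CPM with EC. The control range enclosed all EC libraries, with an LFC of 0.10 (SE 0.082, adjusted p = 0.456) for EC and 0.20 (SE 0.082, adjusted p = 0.171) for PG/VG. ADAR was at 383, 368 and 349 CPM in the controls, 436, 421 and 413 CPM with PG/VG and 362, 418 and 373 CPM with EC. The PG/VG libraries lay above the controls and the EC libraries did not, with an LFC of 0.21 (SE 0.069, adjusted p = 0.0827) for PG/VG and 0.07 (SE 0.069, adjusted p = 0.581) for EC. Of the other members of this group, the exonuclease gene ISG20, PLSCR1 and TDRD7 had LFCs from 0.14 to 0.30 in EC vs. control and from 0.09 to 0.34 in PG/VG vs. control, without a call.

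The ISG15 conjugation genes showed the highest share of calls of any group in EC vs. control, 5 of 6, with a median LFC of 0.58. In PG/VG vs. control 3 of 6 were called, with a median LFC of 0.41. ISG15 itself (chr1:1001138-1014540) was at 44.8, 34.6 and 53.8 CPM in the controls, 51.8, 54.5 and 68.6 CPM with PG/VG and 63.9, 47.7 and 82.6 CPM with EC. EC was above the control in each batch while the ranges overlapped, and the LFC was 0.53 (SE 0.090, adjusted p = 0.000367) with EC and 0.40 (SE 0.090, adjusted p = 0.0115) with PG/VG. UBE2L6, the conjugating enzyme (E2) for ISG15, was at 47.3, 46.5 and 59.7 CPM in the controls, 58.3, 62.5 and 62.1 CPM with PG/VG and 70.8, 61.8 and 64.3 CPM with EC. All EC libraries exceeded the controls, with an LFC of 0.36 (SE 0.087, adjusted p = 0.0072) for EC and 0.26 (SE 0.087, adjusted p = 0.0963) for PG/VG.

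HERC5, the main human ligase for ISG15, and its neighbour HERC6 lie 14.0 kb apart on chromosome 4 (HERC6 at chr4:88378739-88443097 and HERC5 at chr4:88457119-88506163). HERC5 was at 10.4, 10.2 and 14.8 CPM in the controls, 13.8, 13.0 and 27.0 CPM with PG/VG and 18.8, 14.9 and 26.1 CPM with EC. Every EC library lay above the controls, the LFC was 0.76 (SE 0.12, adjusted p = 0.000151) with EC and 0.57 (SE 0.12, adjusted p = 0.00664) with PG/VG. HERC6 was at 11.5, 8.55 and 15.2 CPM in the controls, 14.3, 15.8 and 22.1 CPM with PG/VG and 17.5, 17.4 and 21.6 CPM with EC. Its LFC of 0.70 (SE 0.12, adjusted p = 0.000331) with EC and 0.57 (SE 0.12, adjusted p = 0.00657) with PG/VG was close to that of HERC5 in both comparisons.

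USP18 removes ISG15 from its targets and dampens signalling from the type I receptor. It was at 7.31, 6.87 and 10.1 CPM in the controls, 8.36, 10.7 and 13.6 CPM with PG/VG and 13.2, 9.58 and 14.4 CPM with EC. The ranges overlapped through batch 4 of the control, and the LFC was 0.62 (SE 0.14, adjusted p = 0.00448) with EC and 0.42 (SE 0.14, adjusted p = 0.0902) with PG/VG. TRIM25, a ligase that acts on RIG-I and can also attach ISG15, was the group's exception and among its most abundant members, at 213, 211 and 196 CPM in the controls, 225, 221 and 232 CPM with PG/VG and 208, 230 and 207 CPM with EC. Its LFC was 0.06 (SE 0.069, adjusted p = 0.646) and 0.13 (SE 0.069, adjusted p = 0.29).

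Of the 8 signalling and transcription genes, 3 were higher in each comparison with the control, STAT2, IRF1 and HELZ2, and the median LFC was 0.25 with EC and 0.18 with PG/VG. STAT2 (chr12:56341597-56360203), the subunit that gives the ISRE-binding complex its activating domain, was at 59.6, 61.6 and 93.8 CPM in the controls, 78.8, 84.8 and 102 CPM with PG/VG and 96.0, 96.7 and 114 CPM with EC. EC libraries all exceeded the controls, and the LFC was 0.53 (SE 0.081, adjusted p = 0.000127) with EC and 0.32 (SE 0.081, adjusted p = 0.0223) with PG/VG, the EC call being kept in all 9 fits with a library left out and the PG/VG call in 4. IRF1, a transcription factor for interferon-responsive promoters, was at 27.8, 26.7 and 27.6 CPM in the controls, 31.9, 32.2 and 39.8 CPM with PG/VG and 32.8, 31.5 and 40.8 CPM with EC. Its controls were close to each other and below all treated libraries, with an LFC of 0.35 (SE 0.089, adjusted p = 0.0112) for EC and 0.33 (SE 0.090, adjusted p = 0.0343) for PG/VG, although other genes overlap 22.9% of its exon length.

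HELZ2, a helicase that acts as a nuclear receptor coactivator, was at 106, 108 and 91.5 CPM in the controls, 123, 147 and 118 CPM with PG/VG and 125, 132 and 126 CPM with EC. All treated libraries of HELZ2 lay above its controls, while EC and PG/VG overlapped. The LFC was 0.33 (SE 0.073, adjusted p = 0.00444) with EC and 0.34 (SE 0.073, adjusted p = 0.00819) with PG/VG. IRF9, the DNA-binding partner of STAT2, was low, at 2.73, 1.73 and 3.55 CPM in the controls, 2.29, 3.88 and 2.66 CPM with PG/VG and 2.30, 2.89 and 3.17 CPM with EC. No group stood apart for IRF9 (LFC 0.05, SE 0.25, adjusted p = 0.919 with EC and LFC 0.12, SE 0.25, adjusted p = 0.84 with PG/VG), and at 28 to 71 counts a library a change of the size seen in STAT2 would lie near 2 SE. IRF7, which amplifies interferon transcription, was at 18.7, 18.3 and 16.7 CPM in the controls, 20.0, 21.6 and 19.0 CPM with PG/VG and 24.7, 16.8 and 23.2 CPM with EC. EC replicate 3 of IRF7 was as low as the controls, and the LFC of 0.26 (SE 0.12, adjusted p = 0.152) with EC passed only without that library. NMI and IFI35, which form a complex, both had an LFC of 0.24 with EC and were not called, and the DNA sensor IFI16 was at 0.01 with EC and -0.07 with PG/VG.

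The 3 genes of the PARP and DTX3L group sit together on chromosome 3, where PARP9 (chr3:122527924-122564577) and DTX3L (chr3:122564338-122575203) overlap by 240 bases on opposite strands and PARP14 (chr3:122680839-122730840) follows 106 kb further on. PARP9 and DTX3L proteins form an ADP-ribosylating ubiquitin ligase, and PARP14 is a mono-ADP-ribosyltransferase. PARP14 was at 77.3, 71.4 and 65.9 CPM in the controls, 108, 104 and 103 CPM with PG/VG and 92.7, 111 and 87.9 CPM with EC. Every treated library exceeded every control, with an LFC of 0.44 (SE 0.080, adjusted p = 0.000682) for EC and 0.56 (SE 0.080, adjusted p = 0.000351) for PG/VG, kept in all 9 fits with a library left out. PARP9 was at 28.5, 21.1 and 28.6 CPM in the controls, 33.2, 36.1 and 35.0 CPM with PG/VG and 34.6, 35.4 and 32.1 CPM with EC. Its treated libraries all lay above its controls, while EC and PG/VG overlapped. The LFC was 0.39 (SE 0.10, adjusted p = 0.0133) with EC and 0.42 (SE 0.10, adjusted p = 0.0192) with PG/VG. Without the low control replicate 3 the LFCs were 0.21 and 0.25 and neither was called. DTX3L was at 88.7, 76.0 and 69.8 CPM in the controls, 94.2, 96.4 and 92.9 CPM with PG/VG and 89.5, 95.7 and 77.6 CPM with EC. Only PG/VG lay clear of the controls, with an LFC of 0.28 (SE 0.079, adjusted p = 0.0433), lost in 6 of the 9 fits with a library left out and in DESeq2, and with EC the LFC was 0.16 (SE 0.079, adjusted p = 0.178).

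Neither the guanylate-binding proteins nor the nuclear body and TRIM group held a called member, 0 of 3 in each and in both comparisons, which at 8.07% and 2.63% of all genes called higher is near the background. Guanylate-binding proteins are GTPases that attack the membranes of intracellular pathogens and are classical targets of interferon gamma. Their median LFC was 0.01 with EC and 0.18 with PG/VG in edgeR, and 0 and 1 of the 3 had an unadjusted p under 0.05. GBP1, the most abundant, moved with the batch, between 35.0 and 46.5 CPM in the 3 libraries of batch 4 and between 86.4 and 103 CPM in the other 6. SP100, SP110 and the antibody receptor TRIM21 had LFCs from 0.04 to 0.20 with EC and 0.02 to 0.09 with PG/VG, and 0 had an unadjusted p under 0.05.

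IFI44 and IFI44L, neighbours 3.65 kb apart on chromosome 1 (IFI44L at chr1:78619902-78646145 and IFI44 at chr1:78649796-78664078), gave some of the highest LFCs. IFI44 was at 4.83, 3.47 and 9.12 CPM in the controls, 6.72, 10.1 and 15.4 CPM with PG/VG and 9.08, 9.32 and 17.6 CPM with EC. Control replicate 4 overlapped treated libraries of other batches, while within each batch the treated library was higher, and the LFC was 1.06 (SE 0.15, adjusted p = 7.18e-05) with EC and 0.89 (SE 0.15, adjusted p = 0.0018) with PG/VG, both kept in all 9 fits with a library left out. IFI44L was at 2.99, 0.991 and 1.24 CPM in the controls, 3.44, 5.69 and 5.96 CPM with PG/VG and 6.90, 5.70 and 4.56 CPM with EC. No treated library of IFI44L overlapped the controls, but control replicate 2 was well above the other controls, and the LFC was 1.74 (SE 0.39, adjusted p = 0.0194) with EC and 1.56 (SE 0.40, adjusted p = 0.0633) with PG/VG. The EC value was 2.39 without control replicate 2 and 1.41 without control replicate 3, and the call was lost without control replicate 3, control replicate 4, EC replicate 2 or EC replicate 3, leaving it in 5 of the 9 such fits. IFI6 and IFI27 were not called, with LFCs of 0.36 (SE 0.12, adjusted p = 0.0673) and 0.27 (SE 0.20, adjusted p = 0.432) for EC.

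Among the remaining genes, TRANK1 (chr3:36826819-36945057), a large protein with ankyrin and tetratricopeptide repeats, gave the smallest adjusted p of all 50 in both comparisons with the control. It was at 11.6, 12.8 and 15.4 CPM in the controls, 22.3, 23.3 and 25.7 CPM with PG/VG and 22.0, 24.6 and 26.7 CPM with EC. The treated libraries lay well above the controls and next to each other. The LFC was 0.88 (SE 0.096, adjusted p = 4.1e-06) with EC and 0.84 (SE 0.097, adjusted p = 3.48e-05) with PG/VG, it ranged from 0.84 to 0.93 and from 0.81 to 0.90 as libraries were left out, and EC vs. PG/VG was 0.04 (SE 0.089, adjusted p = 0.904).

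SECTM1 (chr17:82321024-82334074), a secreted and membrane protein that binds CD7 on T and NK cells, was the 1 member called in EC vs. PG/VG. It was at 2.67, 3.65 and 4.78 CPM in the controls, 4.63, 5.14 and 4.42 CPM with PG/VG and 10.9, 12.3 and 7.54 CPM with EC. The EC libraries were above all 6 others, and the PG/VG range overlapped that of the controls. The LFC was 1.45 (SE 0.19, adjusted p = 5.16e-05) in EC vs. control, 0.34 (SE 0.21, adjusted p = 0.384) in PG/VG vs. control and 1.12 (SE 0.18, adjusted p = 0.00257) in EC vs. PG/VG. Within batches 2, 3 and 4 EC exceeded PG/VG by 1.22, 1.25 and 0.76 (log2 difference), so the smallest difference was in batch 4.

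LGALS3BP, a secreted glycoprotein, was the most abundant member per length, with a mean of 183 RPKM in the controls, and the steadiest. It was at 623, 636 and 621 CPM in the controls, 661, 687 and 610 CPM with PG/VG and 668, 658 and 598 CPM with EC. The batch 4 treated libraries were the lowest of the 9, and the LFC was 0.03 (SE 0.065, adjusted p = 0.811) with EC and 0.06 (SE 0.065, adjusted p = 0.69) with PG/VG. EPSTI1 (LFC -0.08 with EC and 0.10 with PG/VG) and XAF1 (LFC 0.40 with EC and 0.56 with PG/VG, at 10 to 55 counts a library and with 38.3% of its exon length overlapped by other genes) were not called.

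In EC vs. PG/VG as a whole, 1 of the 50 members was higher and 0 lower, beside 0.555% and 0.299% of all genes tested. The median LFC was 0.03, beside 0.002 over all genes. At an unadjusted p under 0.05, 4 members were higher and 4 lower in edgeR, and 4 and 2 in DESeq2, which also called SECTM1 alone. The LFCs ran from -0.55 in GBP2 (SE 0.22, adjusted p = 0.259) to 1.25 in RSAD2 (SE 0.35, adjusted p = 0.128), with SEs from 0.065 (LGALS3BP) to 0.35 (RSAD2). A member called against the control in one treatment and not the other is not shown to differ between them. The sign also varied by batch, with 35, 23 and 21 members higher in EC than in PG/VG in batches 2, 3 and 4 and medians of 0.13, -0.01 and -0.04. In 5 members EC was higher in all 3 batches, beside 16.8% of all genes tested.

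The batch made differences as large as the treatment. In batch 4 against the mean of batches 2 and 3, 14 members were higher and 11 lower, where 20.1% and 20.5% of all genes were called, and the median was -0.03. RSAD2 had the highest batch 4 LFC, 2.30 (SE 0.31, adjusted p = 1.67e-05), although its controls of batches 3 and 4 were at 0.867 and 0.901 CPM and only the treated libraries of batch 4 stood apart. It was followed by IFI44 with 0.97 (SE 0.12, adjusted p = 7.44e-07) and ISG20 with 0.96 (SE 0.11, adjusted p = 2.46e-07). GBP1 was lowest, with -1.26 (SE 0.072, adjusted p = 2.79e-12), followed by EPSTI1 with -0.92 (SE 0.094, adjusted p = 4.2e-08). Of the 25 members called in at least 1 comparison with the control, 11 were higher, 3 lower and 11 neither in batch 4, and of the other 25 the numbers were 3, 8 and 14. All 4 ISG15 conjugation genes called in batch 4 (ISG15, HERC5, HERC6 and USP18) were higher there, and each was also higher in EC vs. control. How batch 4 calls divide by treatment call over all genes tested is not given here, so these counts have no background. What the batch number stands for beyond the replicate is not given in the labels.

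**Figure D4:**
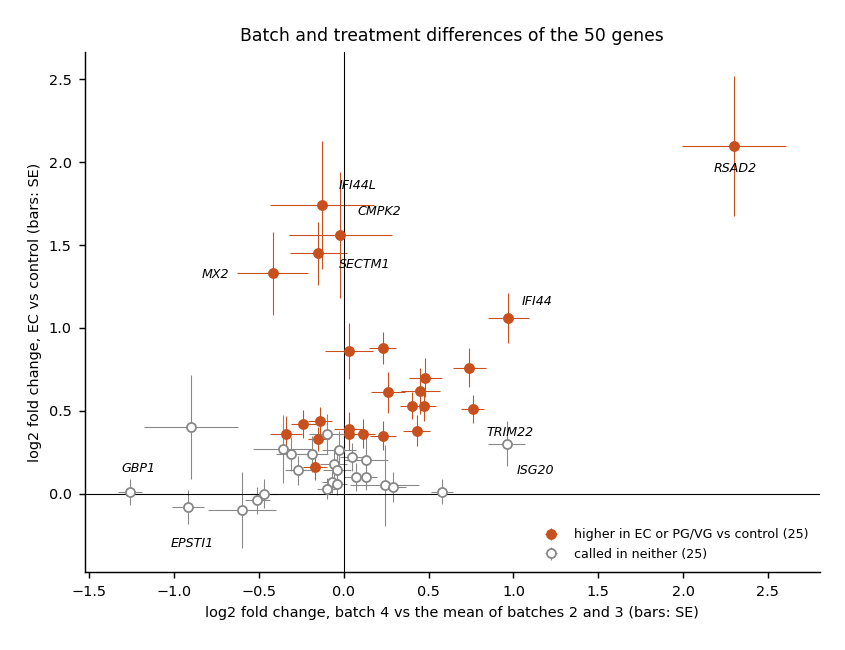
Fitted log2 fold change of batch 4 against the mean of batches 2 and 3 (x axis) and of EC vs. control (y axis) for the 50 genes, with bars of 1 SE, orange for genes higher in EC or PG/VG vs. control and open grey for the rest. RSAD2 lies at 2.30 on the batch axis and 2.10 on the treatment axis, while GBP1 lies at -1.26 and 0.01.

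Per length of exon, in RPKM from CPM and the union of annotated exons, the controls held a median of 4.84 RPKM over the members, beside 3.82 over 15949 genes tested that had an exon length, and 27 of the 50 were above that median. LGALS3BP (183 RPKM), IFITM3 (63.1), BST2 (58.4), ISG15 (51.2) and IFI6 (47.3) were highest, and RSAD2 (0.127), CMPK2 (0.132), IFI44L (0.150) and MX2 (0.199) lowest. These 4 lowest members were all higher in EC vs. control, as were BST2 and ISG15 near the top. Members called in at least 1 comparison had a median control level of 23.7 CPM, from 0.578 to 102, and those called in neither 29.6 CPM, from 1.36 to 627. Members were thus found in both classes at low and at middle levels, and the 5 members with the highest control CPM (LGALS3BP, ADAR, TRIM25, IFITM3 and EIF2AK2) were called in neither.

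Calls were found with and without the ISRE core. Among the 26 with the core in the promoter window, 12 were higher with EC and 10 with PG/VG, with median LFCs of 0.33 and 0.29. Among the 18 without it, 9 and 6 were higher, with medians of 0.34 and 0.29. Members without the core included RSAD2, CMPK2, STAT2, IRF1, HERC6 and TRANK1. With the GAS core, 5 of 13 were higher with EC and 4 with PG/VG, with medians of 0.24 and 0.15, and without it 16 and 12 of 31 were higher, with medians of 0.36 and 0.34.

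The genes that feed this pathway were measured as well. None of 21 listed interferon genes reached the minimum for testing, and 16 of them had 0 counts in all 9 libraries, which for reads that map to 1 place allows up to 3 counts in a library, or 0.186 CPM in the smallest. The IFNA genes, and the IFNL genes, are close paralogs whose shared reads were not counted, so their 0 does not bound the reads. IFNE had 2 to 14 counts and IFNB1 0 to 3. Of 9 receptor and kinase genes, 0 were called in either comparison, with 3 at an unadjusted p under 0.05 with EC and 0 with PG/VG in edgeR, and at 8.07% and 2.63% of all genes called higher, 0 of 9 is near the background. The type I receptor subunit IFNAR1 was at 94.5, 88.6 and 104 CPM in the controls, 98.0, 87.6 and 132 CPM with PG/VG and 101, 98.6 and 126 CPM with EC (LFC 0.17, SE 0.076, adjusted p = 0.133 for EC). Its partner IFNAR2 was at 4.76, 2.42 and 4.00, then 2.54, 4.54 and 4.50, then 3.57, 4.81 and 3.67 CPM in the same order (LFC 0.11, SE 0.26, adjusted p = 0.836 for EC). Both receptor subunits overlapped between groups.

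Transcription factors of the pathway outside the 50 included IRF2 and IRF5, which were higher in EC vs. control and not called in PG/VG vs. control. IRF2 was at 29.2, 28.1 and 36.7 CPM in the controls, 32.5, 32.3 and 36.8 CPM with PG/VG and 36.3, 38.3 and 41.9 CPM with EC. IRF5 was at 3.56, 3.47 and 3.32 CPM in the controls, 4.10, 5.63 and 4.72 CPM with PG/VG and 5.47, 4.47 and 6.25 CPM with EC. The groups overlapped for IRF2, and for IRF5 both treatments lay above the controls. IRF2 had an LFC of 0.31 (SE 0.083, adjusted p = 0.0143) with EC and 0.11 (SE 0.084, adjusted p = 0.476) with PG/VG, and IRF5 had 0.64 (SE 0.18, adjusted p = 0.0209) and 0.47 (SE 0.19, adjusted p = 0.148). Of 14 inhibitors of the pathway, such as the SOCS genes, 0 were called in either comparison, with 3 and 2 at an unadjusted p under 0.05 in edgeR. A count of 0 in lists of this size lies near the share of all genes (8.07% and 2.63% called higher).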

How the data were processed

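RNA of BEAS-2B cells was sequenced in 9 libraries, 3 per condition. Reads were filtered by the authors in fastp, mapped with STAR on GRCh38.p12 and summarised per gene over exons by featureCounts (Subread 2.0.4), ignoring multi-mapping and multi-overlapping reads. The deposited values are these raw counts for 63187 genes, unadjusted for batch. The strand setting is not given in the sources used here. Gene coordinates and exon lengths are those of GENCODE 44 (GRCh38), in which 62666 of the identifiers were found. Promoter windows are from RefSeq (GRCh38.p14).

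In R 4.3.3, the 16030 genes reaching 10 counts in 3 libraries or more were fitted in edgeR 4.0.16 with TMM factors, robust dispersions and 1 quasi-likelihood model of condition and batch. The SE was taken as the absolute LFC over the root of the F statistic. Within-batch differences are of log2 CPM with a prior count of 2. The batch number of the labels was used as the replicate block. Libraries of the same number had deviations from their group means correlated by 0.334 to 0.707 (9 pairs), and libraries of different numbers by -0.539 to 0.426 (18 pairs). Replicates of a group differed by a chi-square per gene of 3.88 to 53.9, so none was a duplicate. With 16168260 to 24917838 counts a library, members under 1 CPM rest on few reads, and p-values measure the spread between these replicates of 1 line.

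The 50 members, the role groups and the pathway and marker lists were chosen with earlier results of these data known, so the lists received no test of their own. Values in every library are given for members past the threshold in a treatment comparison, the 5 with the highest control level, RSAD2, MX1, MX2, ISG15, STAT2, IRF9, IRF7 and IRF1, and for IFNAR1, IFNAR2 and called pathway genes outside the members. The values of 1 such pathway gene are not reported here. GBP1 and the batch examples were named after their values were seen. Alternatives were no replicate block, RLE or library-size scaling, no filter or a stricter one, DESeq2 1.42.0 with batch, ComBat-Seq (sva 3.50.0) with DESeq2, the 2 groups alone, an adjusted p under 0.01, each library left out, and, added after seeing the data, thinned counts. The steps were tested on simulated counts.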

Additional observations from a re-analysis of the deposited data

Results flagged for a closer look

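SECTM1 was singled out because the direct test of EC against PG/VG differed. The LFC was 1.12 (SE 0.18, adjusted p = 0.00257 by edgeR, Benjamini-Hochberg over 16030 genes), with EC higher than PG/VG in 3 of 3 batches. It stayed between 0.96 and 1.36, with an adjusted p of at most 0.0404, when each of the 9 libraries was left out in turn. None of the other 49 members was called in this comparison. RSAD2 had a larger LFC, 1.25 (SE 0.35, adjusted p = 0.128 by the same test), with EC higher in 3 of 3 batches. It was called when control replicate 3 or control replicate 4 was left out. No replicate group was large enough for a check of single outlying libraries.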

How the results depend on the processing

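No member was called lower in EC vs. control or PG/VG vs. control under any alternative run, and no called single-gene value changed sign. Of the values under the alternatives of the 32 members given in every library, 1653 stayed on their side of the threshold, where values near 0 without a call could change sign, 26 passed it in addition and 139 no longer did. The replicate block decided the calls, since without it 0 members were called in EC vs. control, 0 in PG/VG vs. control and 0 in EC vs. PG/VG, in place of 24, 17 and 1. At an adjusted p under 0.01, 9 members remained called in PG/VG vs. control and 19 in EC vs. control. EC vs. PG/VG gave 2 members without a filter on low counts and with the 2 groups alone (RSAD2 with SECTM1), and 2 with ComBat-Seq and DESeq2 (TRIM22 with SECTM1). When single libraries were omitted, the counts ranged from 17 to 25 in EC vs. control, from 8 to 18 in PG/VG vs. control, from 1 to 2 in EC vs. PG/VG and from 18 to 27 in the batch contrast. The median LFC then ranged from 0.27 to 0.35, 0.24 to 0.32 and -0.03 to 0.06 in the 3 treatment comparisons. Scaling by library size alone gave 27 and 19 members higher, with the median of all genes at 0.068 and 0.040. Depth limits the members under 30 counts in some library (RSAD2, CMPK2, IFI44L, MX2, XAF1, IRF9 and GBP2). Except where a setting drops libraries or tightens the threshold, the cause of a changed call was not tested.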
